A study of Mus musculus with 21 samples.

Results

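Mouse embryonic stem cells whose own SOX2 was silenced and replaced from a SOX2 lentivirus were compared, in 2i medium and over all genes, with untransduced cells of the same line. The comparison took 7 of the 21 libraries of the series. Of these, 4 came from SOX2-rescued cells in 2i and 3 from untransduced cells in 2i, which the labels call NTC, and no library was chosen by its values. All came from 2TS22C, a mouse embryonic stem cell line in which both endogenous Sox2 alleles are deleted and Sox2 is supplied by a transgene that doxycycline shuts off. The SOX2-rescued cells carried a SOX2 lentivirus, were given doxycycline, and are described as having their own SOX2 silenced. The NTC cells are labelled wild type, were not transduced, and have no doxycycline in their labels. Lentiviral transduction, doxycycline and the source of SOX2 therefore differed together between the groups, and their parts in any difference cannot be told apart. The labels do not say whether the rescued cells were a clone or a pool. A further 4 libraries in 2i came from doxycycline-treated cells carrying a lentivirus for SOX17FNV, an engineered SOX17, and these helped to estimate the spread. SOX2-rescued and NTC cells in serum and LIF without the inhibitors, here called SL, had 2 libraries each and served to compare the media. Fits over all 21 libraries also took in doxycycline-treated cells carrying a miniSOX lentivirus, with 2 libraries in 2i and 2 in SL, and 2 SOX17FNV libraries in SL.

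SOX2 is a DNA-binding factor of the SRY-box family that acts with OCT4, the product of Pou5f1, on enhancers of pluripotency genes, and embryonic stem cells without it lose self-renewal. The 2i medium contains an inhibitor of MEK, which blocks signalling through ERK, and an inhibitor of GSK3, which stabilises beta-catenin. With LIF it holds mouse embryonic stem cells in the naive state. Cells in that state have both active respiration and active glycolysis, and they lay down laminin, nidogen and type IV collagen as parts of a basement membrane that integrins bind.

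The deposited values were whole numbers normalized so that every library had almost the same distribution. Sorted values of the libraries differed by at most 3, and 66.3% of ranks held identical values, so the sequencing depth is unknown and a gene's value follows its rank within its library. Libraries fell into 2 sets. The first set had replicates 1 and 2 of the SOX2, NTC and SOX17FNV groups. In 2i the second set added 5 libraries of these groups, whose column names contain p21 or p31, terms that the labels do not explain, and the miniSOX libraries were also counted to it. Among genes with values from 500 to 1500, the log2 values of SOX2 replicates 1 and 2 differed with an SD of 0.109, and those of NTC replicates 1 and 2 with an SD of 0.097. Between the sets the same figure was 0.505 for SOX2 replicate 1 and p21, 0.604 for SOX2 replicate 1 and p31, and 0.611 for NTC replicate 1 and p31. SOX2 p21 and p31 differed with an SD of 0.27. The titles of the second set number its libraries as biological replicates 2 and 3, so replicates 1 and 2 of the first set were averaged and counted once. That left 3 SOX2 values and 2 NTC values a gene. Separate cultures are not named in the labels, and the p-values therefore reflect how far these libraries differ, possibly for technical reasons alone.

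Sox2 itself was present in both groups. Sox2 (chromosome 3, 34650405 to 34652461, plus strand, GRCm38) was listed at 1509, 1251, 939 and 947 in SOX2 replicate 1, replicate 2, p21 and p31, against 1310, 1362 and 2697 in NTC replicate 1, replicate 2 and p31. The groups overlapped in the first set, and the NTC p31 library was the highest of the 7. The log2 difference was -0.82 ± 0.45 (SE, 3 against 2 values) and did not pass the test (limma, adjusted p = 0.354). Within the first set it was 0.04, and within the second it was -1.52. Reads from the lentivirus and from the original transgene could not be separated here, and no source used here gives the sequence of either. In SOX17FNV cells, which were given no SOX2 lentivirus, Sox2 was listed at 35, 36, 43 and 19. Sox17, an endoderm regulator and the factor engineered in those cells, was near 0 in both groups considered here, at 6, 5, 2 and 2 in SOX2 libraries against 1, 0 and 0 in NTC libraries. Its log2 difference of 1.83 ± 0.30 passed the test narrowly (adjusted p = 0.0495), and at these levels it depends on the added constant, at 0.41 with a constant of 10 and 4.2 with one of 0.1.

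Of 16241 genes tested, 237 (1.46%) were called at an adjusted p under 0.05 (limma with Benjamini-Hochberg adjustment). Of these, 175 (1.08% of genes tested) were higher in SOX2-rescued cells and 62 (0.382%) were lower, and 207 differed by at least 2-fold. As a description of the genes so selected, on these same libraries, all 237 had 1 direction in both sets and 233 had no overlap between the 4 SOX2 and the 3 NTC libraries. Over all genes tested, 3595 (22.1%) did not overlap, 11.2% with SOX2 above and 10.9% with SOX2 below, and the median log2 difference was 0.02. The number of calls depended on the libraries and terms in the fit. Without SOX2 p21 no gene was called by limma (2567 at an unadjusted p under 0.05), without SOX2 p31 there were 2 calls, and without NTC p31 there were 30. Without the SOX17FNV values there were 2 calls, none of them higher, with no set term 71, and with p21 and p31 as separate batches 56. The smallest adjusted p was 0.00501. If each of the 21 libraries is counted as a replicate of its own, 4718 of 16443 genes (28.7%) pass, 14.4% higher and 14.3% lower, and 235 of the 237 are among them. Counts from that wider fit are given below beside those of the averaged fit, since its replicates within the first set are nearly alike and its p-values are too small if they are technical. Across 11975 genes with a mean of at least 50, the differences in the first set and those in the second, which share no library, had a Pearson correlation of 0.3 across genes, which are not independent.

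**Figure D1:**
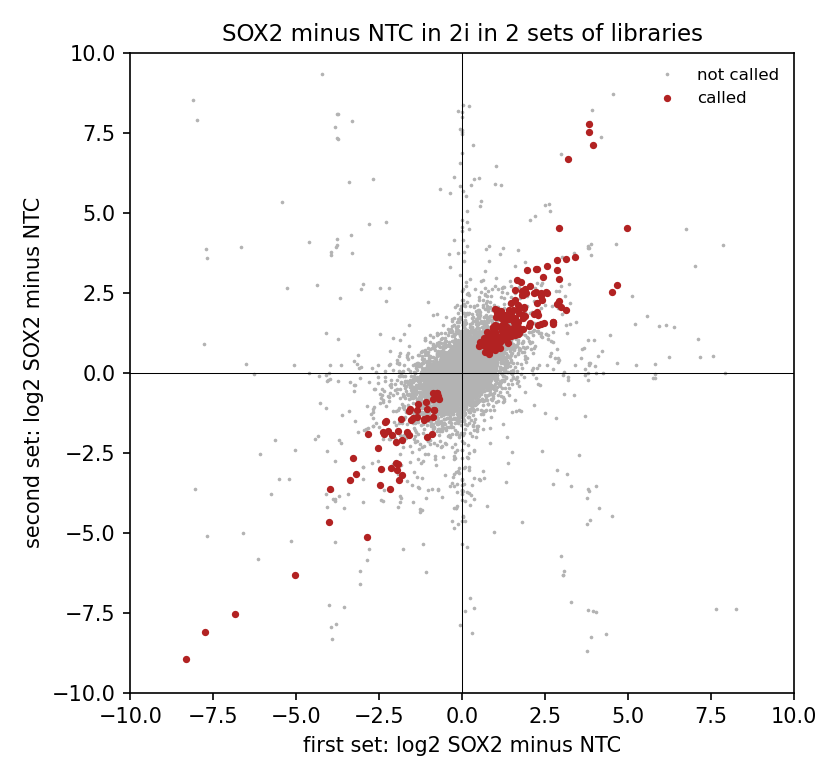
Log2 difference between SOX2-rescued and NTC cells in 2i within the first set (x axis) and within the second set (y axis), 1 point a gene. Only genes with a mean of at least 50 over the 7 libraries are drawn, so some called genes are missing. The called genes drawn, in red, lie in the upper right and lower left quadrants, and the grey genes scatter around 0 along both axes.

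Genes for integrins and basement membrane parts were higher in SOX2-rescued cells, in part. Of 31 measured members of that list, 5 rose and none fell, beside 1.08% and 0.382% of all genes, and their median log2 difference was 0.31 against 0.02 over all genes. The other 26 did not pass. No member was called without SOX2 p21 or without SOX2 p31, and 1 was called without NTC p31. In the wider fit 15 rose and 7 fell, beside 14.4% and 14.3% of all genes. The 4 SOX2 libraries lay above all NTC libraries for 13 members and below them for 4, beside 11.2% and 10.9% of all genes.

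Itga3, the alpha-3 integrin that pairs with beta-1 and binds laminin (chromosome 11, 95044474 to 95076801, minus strand), had the largest increase of the list. It was listed at 1049, 1162, 547 and 622 in SOX2 libraries against 44, 42 and 85 in NTC libraries. No library of either group came near the other, and the log2 difference was 3.61 ± 0.43 (adjusted p = 0.0283). Itga5, the alpha-5 chain of the fibronectin receptor, was listed at 1389, 1496, 1178 and 1813 in SOX2 libraries against 593, 663 and 433 in NTC libraries, a log2 difference of 1.52 ± 0.21 (adjusted p = 0.0398). Itgb4, the beta-4 chain of the hemidesmosome integrin, reached 283, 275, 253 and 319 in SOX2 libraries against 102, 140 and 84 in NTC libraries, and rose by 1.53 ± 0.21 on the log2 scale (adjusted p = 0.0355). For both integrins every SOX2 library lay above every NTC library.

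Nid1, which links the laminin and type IV collagen networks (chromosome 13, 13437551 to 13512269, plus strand), was listed at 9102, 9102, 8024 and 9102 in SOX2 libraries against 3056, 3034 and 1749 in NTC libraries. The equal values come from the normalization, which gives the same number to the same rank. The log2 difference was 1.95 ± 0.23 (adjusted p = 0.0283). Sparc, a collagen-binding matrix protein, was the least changed of the 5, at 2818, 2932, 3208 and 2954 in SOX2 libraries against 1640, 1804 and 1769 in NTC libraries, with a log2 difference of 0.77 ± 0.12 (adjusted p = 0.0495). The values lay close together within each group for Sparc, and no libraries overlapped.

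Members that make up the core of the basement membrane lay on both sides of 0. Lama5, the laminin alpha-5 chain, had a log2 difference of 0.82 ± 0.20 (adjusted p = 0.098), and Hspg2, which encodes perlecan, one of 0.55 ± 0.17 (adjusted p = 0.138). Neither passed, although all SOX2 libraries lay above all NTC libraries for both genes. The type IV collagen genes differed in the other direction. Col4a1 was listed at 348, 352, 766 and 215 in SOX2 libraries against 1475, 1521 and 2954 in NTC libraries (log2 difference -2.65 ± 0.71, adjusted p = 0.112). Col4a2, its partner chain, was at 343, 288, 499 and 124 in SOX2 libraries against 1146, 1106 and 1857 in NTC libraries (-2.57 ± 0.77, adjusted p = 0.138). The groups did not overlap for either collagen gene, but the SOX2 p21 and p31 libraries differed from each other by more than for the integrins, and the exons of the pair overlap on opposite strands. Col4a5 and Col4a6, which encode further type IV collagen chains, were low in all libraries. Col4a5 was at 22, 30, 8 and 14 in SOX2 libraries against 56, 55 and 41 in NTC libraries (-1.54 ± 0.38, adjusted p = 0.098). Col4a6 was at 7, 0, 0 and 3 in SOX2 libraries against 21, 21 and 41 in NTC libraries (adjusted p = 0.105), again without overlap. Of the other laminin chains, Lamc1 was at 7522, 7059, 10739 and 13688 in SOX2 libraries against 5330, 5395 and 6698 in NTC libraries (0.67 ± 0.19, adjusted p = 0.125). Lama1 was at 1197, 1119, 2446 and 1640 in SOX2 libraries against 2446, 2340 and 2340 in NTC libraries (-0.58 ± 0.24, adjusted p = 0.233), so the SOX2 p21 library reached the NTC level.

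**Figure D2:**
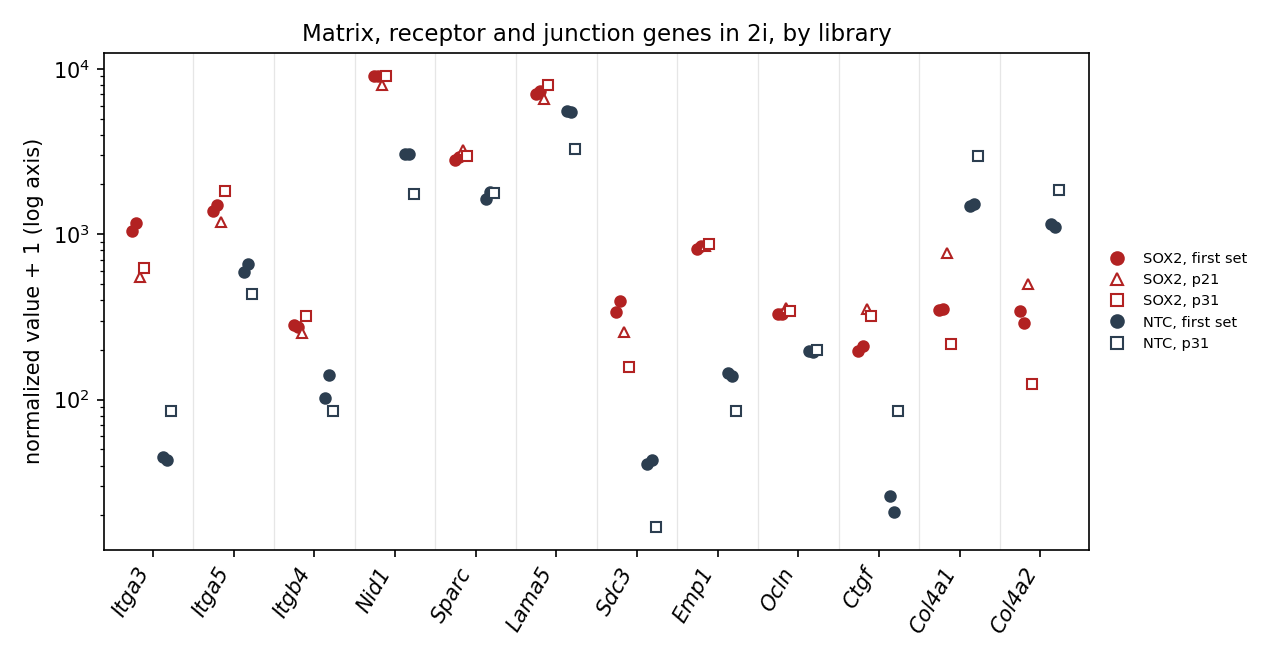
Normalized value plus 1, on a log axis, of matrix, receptor and junction genes in each SOX2 library (red) and NTC library (dark blue), with circles for the first set, a triangle for p21 and squares for p31. Itga3, Sdc3, Emp1 and Ctgf show wide gaps with SOX2 above, and Col4a1 and Col4a2 show gaps with SOX2 below that did not pass the test.

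Among 28 measured epithelial adhesion and junction genes, 1 rose and 1 fell (median log2 difference 0.19), and in the wider fit 9 rose and 3 fell. The shares over all genes were 1.08% and 0.382% in the averaged fit, and 14.4% and 14.3% in the wider fit. The riser was Ocln, which encodes the tight junction protein occludin, at 329, 327, 358 and 343 in SOX2 libraries against 196, 194 and 199 in NTC libraries (log2 difference 0.79 ± 0.12, adjusted p = 0.0411). The gene that fell was Vim, the intermediate filament protein of mesenchymal and many cultured cells. It was at 309, 363, 785 and 453 in SOX2 libraries against 1272, 1422 and 4232 in NTC libraries (-2.41 ± 0.37, adjusted p = 0.0461). Cdh1, which encodes E-cadherin, was at 8734, 9102, 10739 and 14818 in SOX2 libraries against 6245, 7059 and 6698 in NTC libraries and did not pass (0.70 ± 0.23, adjusted p = 0.156). Dsp, the desmosome protein desmoplakin, was just short of the threshold (1.60 ± 0.28, adjusted p = 0.053). For both Cdh1 and Dsp all SOX2 libraries lay above all NTC libraries.

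Of further surface and matrix-linked genes, Sdc3, Emp1 and Megf11 were among the 12 largest increases that the naming rule selects. Ctgf and Cyr61 were not among them and are given as list members. Sdc3, a heparan sulfate proteoglycan of the cell surface, was listed at 337, 392, 256 and 156 in SOX2 libraries against 40, 42 and 16 in NTC libraries (log2 difference 3.33 ± 0.35, adjusted p = 0.0246). Emp1, an epithelial membrane protein, was uniform within the SOX2 group at 817, 848, 843 and 870, against 144, 139 and 84 in NTC libraries (3.02 ± 0.25, adjusted p = 0.0202). Megf11, a transmembrane protein with EGF-like repeats, was at 586 and 595 in the first set and at 82 and 57 in SOX2 p21 and p31, against 20 and 16 in the first set and 2 in NTC p31. The level of Megf11 thus differed between the sets in both groups, while the log2 difference within them was 4.97 and 4.53 (4.64 ± 0.42 in both together, adjusted p = 0.0219). Ctgf, a secreted matrix-associated protein and a familiar target of the YAP and TEAD factors, was at 197, 211, 352 and 320 in SOX2 libraries against 25, 20 and 85 in NTC libraries (2.52 ± 0.34, adjusted p = 0.0348). Of 22 measured YAP and TEAD targets, a list added after the values were seen, Ctgf was the 1 that rose and none fell (median 0.20), with 8 higher and 2 lower in the wider fit. Over all genes 1.08% rose and 0.382% fell, and 14.4% and 14.3% in the wider fit. Cyr61, a close relative of Ctgf, was at 364, 441, 711 and 436 in SOX2 libraries against 39, 34 and 184 in NTC libraries, without overlap and without passing (2.49 ± 0.64, adjusted p = 0.106).

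Some glycolysis and lactate genes were lower in SOX2-rescued cells. Of 25 measured members, 3 fell and none rose, beside 0.382% and 1.08% of all genes, and the median log2 difference of the list was -0.79. The log2 difference was below 0 for 21 members, and the SOX2 libraries lay below all NTC libraries for 12 and above them for 1. Over all genes, 10.9% lay below without overlap and 11.2% above. In the wider fit 16 fell and 2 rose, beside 14.3% and 14.4% of all genes. None was called without SOX2 p21, SOX2 p31 or NTC p31.

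Pgk1, which encodes the glycolytic enzyme phosphoglycerate kinase (chromosome X, 106187100 to 106203699, plus strand), was listed at 4409, 4233, 4048 and 2697 in SOX2 libraries against 21185, 22912 and 12486 in NTC libraries. It fell by 2.14 on the log2 scale (SE 0.29, adjusted p = 0.0352). Pdk1, the kinase that restrains entry of pyruvate into the mitochondrial citric acid cycle, was at 508, 493, 535 and 444 in SOX2 libraries against 2621, 2621 and 1774 in NTC libraries, and fell by 2.07 (SE 0.25, adjusted p = 0.0283). Pkm, the pyruvate kinase of proliferating cells, was at 11819, 11819, 19697 and 12486 in SOX2 libraries against 30387, 30387 and 40741 in NTC libraries, and fell by 1.37 (SE 0.21, adjusted p = 0.0455). In all 3 genes the groups did not overlap, with SOX2 p21 the highest of its group for Pkm. Pkm lay near the top of the distribution, where neighbouring ranks are far apart in value, so its gap may span few ranks.

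Several members had larger differences with wider spread. Slc16a3, the lactate exporter MCT4, was at 52, 50, 229 and 21 in SOX2 libraries against 2566, 3108 and 991 in NTC libraries (log2 difference -4.73 ± 1.19, adjusted p = 0.104). Bnip3, a mitochondrial protein of hypoxic cells, was at 137, 122, 230 and 88 in SOX2 libraries against 2126, 2284 and 782 in NTC libraries (-3.18 ± 0.57, adjusted p = 0.054). Neither overlapped between groups and neither passed. Groups also did not overlap and did not pass for Slc2a1, the glucose transporter GLUT1 (-1.82 ± 0.51, adjusted p = 0.125), Pfkl, a phosphofructokinase (-1.93 ± 0.48, adjusted p = 0.103), and Ldha, a lactate dehydrogenase (-1.36 ± 0.42, adjusted p = 0.145). For Ldha the log2 difference was -2.42 within the first set and -0.52 within the second. Eno1, an enolase, had a smaller and more even difference (-0.85 ± 0.16, adjusted p = 0.0595). Hk1, a hexokinase, and Pfkm, the muscle phosphofructokinase, lay on the other side of 0 (0.46 ± 0.19 with adjusted p = 0.235, and 0.61 ± 0.21 with adjusted p = 0.167).

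Many glycolysis genes are targets of the hypoxia-inducible factors HIF1 and HIF2, which prolyl hydroxylases mark for destruction when oxygen is present. Of 32 measured HIF targets, a list added after the values were seen and sharing Pgk1, Pdk1 and other members with the glycolysis list, 3 fell and none rose, with a median of -0.73. The log2 difference was below 0 for 29 of them, and 19 fell and 1 rose in the wider fit. Over all genes 0.382% fell and 1.08% rose, and 14.3% and 14.4% in the wider fit. The gene that fell most was Egln3, itself a HIF target and a prolyl hydroxylase (chromosome 12, 54178981 to 54203860, minus strand), at 31, 34, 35 and 22 in SOX2 libraries against 490, 572 and 355 in NTC libraries. It fell by 3.84 on the log2 scale (SE 0.38, adjusted p = 0.0238), and the SOX2 libraries lay close together. Epas1, which encodes the HIF2 alpha subunit (chromosome 17, 86753700 to 86833410, plus strand), moved the other way. It was at 270, 208, 316 and 730 in SOX2 libraries against 35, 29 and 41 in NTC libraries (3.26 ± 0.40, adjusted p = 0.0283), with SOX2 p31 the highest. Vegfa, the vascular growth factor and a classical HIF target, was at 2429, 2384, 2351 and 1385 in SOX2 libraries against 2240, 2565 and 295 in NTC libraries. Its groups overlapped in the first set, and the gap came from the NTC p31 library (1.43 ± 0.87, adjusted p = 0.405).

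**Figure D3:**
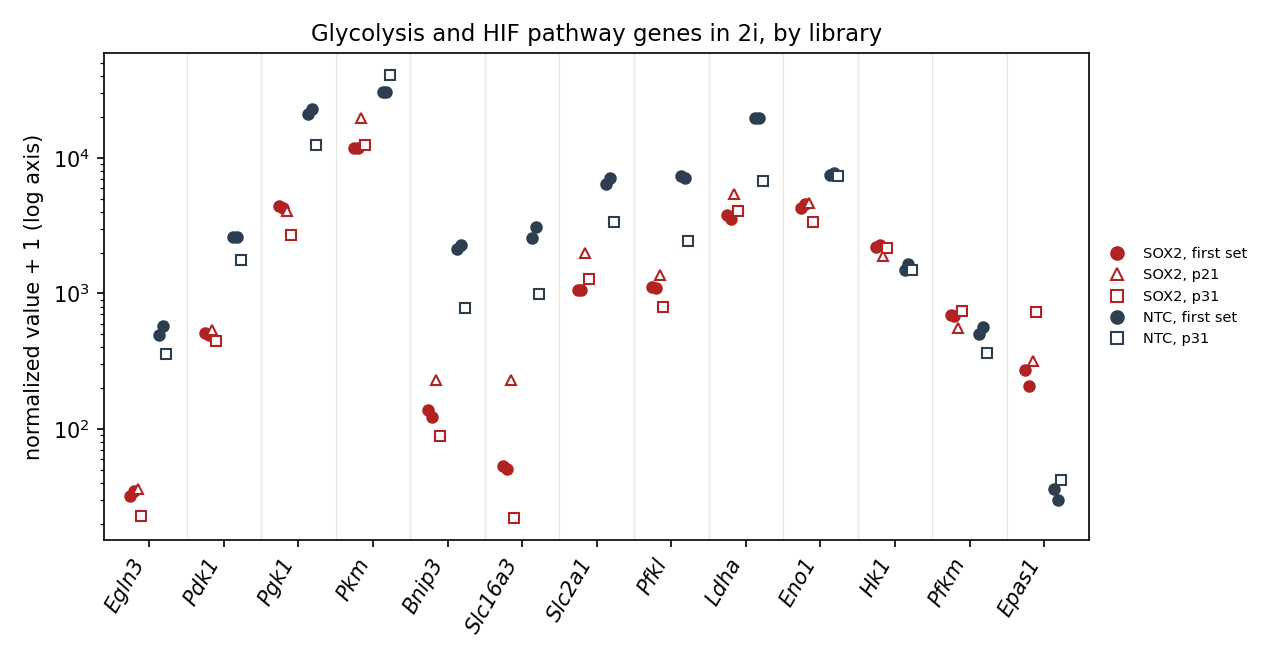
Normalized value plus 1, on a log axis, of glycolysis and HIF pathway genes in each SOX2 library (red) and NTC library (dark blue), with circles for the first set, a triangle for p21 and squares for p31. The SOX2 libraries lie below the NTC libraries from Egln3 to Eno1, and above them for Hk1 and Epas1.

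Respiratory chain genes did not share the shift. Of 29 measured nuclear-encoded members none passed, with a median of 0.17, and the wider fit had 8 higher and none lower. Over all genes the wider fit had 14.4% higher and 14.3% lower. Of the 13 mitochondrially encoded genes none passed, with a median of -0.05, and the wider fit had 2 higher and 1 lower. The most shifted was mt-Co3, a subunit of cytochrome oxidase, at 40745 in all 4 SOX2 libraries against 19699, 19699 and 25021 in NTC libraries (0.85 ± 0.17, adjusted p = 0.066). At the top of the distribution neighbouring ranks are far apart in value, so such steps span few ranks.

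Several of the largest increases were genes with little or no signal in NTC cells. Fabp4, a fatty acid binding protein, was listed at 41, 40, 34 and 86 in SOX2 libraries and at 0 in all 3 NTC libraries. Galnt13, a glycosyltransferase that starts mucin-type chains, was at 58, 41, 78 and 77 in SOX2 libraries and at 0 in the NTC libraries. A listed 0 in these files may be a failed estimate, so no fold is given for either gene. Myo18b, an unconventional myosin, was at 20, 15, 57 and 102 in SOX2 libraries against 0, 2 and 1 in NTC libraries. The olfactory receptor gene Olfr1312 was at 254, 380, 230 and 331 in SOX2 libraries against 208, 1 and 1 in NTC libraries. NTC replicates 1 and 2, alike for most genes, thus stood far apart for Olfr1312.

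Other large increases had NTC values above 0 in every library, though those of Acsl6 were low. Ppp2r2c, a regulatory subunit of the phosphatase PP2A, was at 1379, 1347, 1647 and 1769 in SOX2 libraries against 57, 62 and 296 in NTC libraries (3.45 ± 0.51, adjusted p = 0.0421). Acsl6, which activates long-chain fatty acids, was at 136, 130, 122 and 106 in SOX2 libraries against 18, 16 and 4 in NTC libraries (3.76 ± 0.44, adjusted p = 0.0283). In both the NTC p31 library stood apart from its group, higher for Ppp2r2c and lower for Acsl6.

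Among the named decreases the smallest adjusted p was that of Nrp2, the neuropilin that serves as a receptor for class 3 semaphorins and VEGF-C (chromosome 1, 62703285 to 62818695, plus strand). It was listed at 51, 62, 69 and 55 in SOX2 libraries against 901, 943 and 1603 in NTC libraries. It fell by 4.44 on the log2 scale (SE 0.30, adjusted p = 0.0119), with every SOX2 library far below every NTC library. Nrp2 is 1 of 33 measured axon guidance ligands and receptors, of which 2 fell and none rose (median -0.23), with 3 higher and 8 lower in the wider fit. All genes gave 1.08% higher and 0.382% lower, and 14.4% and 14.3% in the wider fit. The other was Slit3, a secreted ligand of ROBO receptors, at 85, 90, 74 and 38 in SOX2 libraries against 327, 294 and 491 in NTC libraries (-2.62 ± 0.42, adjusted p = 0.0491). Robo1, a receptor for SLIT ligands, did not quite pass (-1.64 ± 0.28, adjusted p = 0.052), though its groups did not overlap.

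Trh, the thyrotropin-releasing hormone gene, was at 11, 11, 20 and 10 in SOX2 libraries against 383, 407 and 1222 in NTC libraries, and fell by 5.72 (SE 0.65, adjusted p = 0.0279). Serpine2, a secreted protease inhibitor, was at 111, 121, 127 and 100 in SOX2 libraries against 526, 521 and 1399 in NTC libraries, and fell by 2.97 (SE 0.36, adjusted p = 0.0283). In both genes the NTC p31 library lay well above the other NTC libraries, and no SOX2 library came near any of them. Hip1r, an adaptor between clathrin and actin, was at 98, 136, 186 and 175 in SOX2 libraries against 1068, 1071 and 1647 in NTC libraries (-3.13 ± 0.46, adjusted p = 0.0421). Exons of Hip1r overlap those of Vps37b on the opposite strand, and no source used here says whether reads were counted by strand. The remaining named decreases were Gna14, a G protein alpha subunit (-3.29 ± 0.40), Paqr7, a membrane progestin receptor (-3.08 ± 0.40), the atypical MAP kinase gene Mapk4 (-2.95 ± 0.31) and Pdzrn4, a PDZ and RING finger protein (-2.74 ± 0.30), with adjusted p from 0.0246 to 0.0325.

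For 3 of the 12 largest decreases all SOX2 libraries were listed at 0. Gabrg1, a GABA-A receptor subunit, was at 322, 320 and 493 in the NTC libraries, Ppp1r42 at 261, 174 and 275, and the olfactory receptor gene Olfr701 at 58, 44 and 87. Gabrg1 and Ppp1r42 were also split within the SOX17FNV group, where replicate 2 was at 281 and 166 and the other 3 libraries were at 0. No fold is given for these genes.

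**Figure D4:**
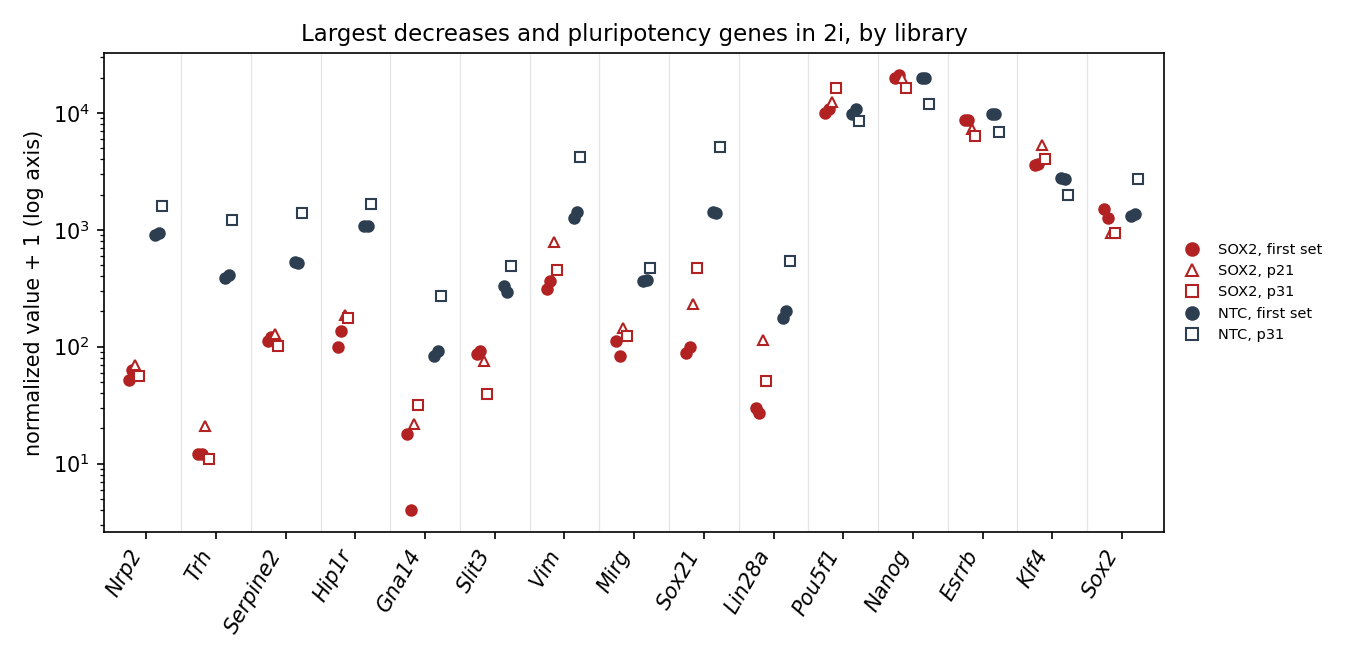
Normalized value plus 1, on a log axis, of genes with large decreases and of pluripotency genes in each SOX2 library (red) and NTC library (dark blue), with circles for the first set, a triangle for p21 and squares for p31. From Nrp2 to Lin28a the SOX2 libraries lie below the NTC libraries, and from Pou5f1 to Sox2 the groups overlap except for Klf4.

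No pluripotency gene passed the test, and the lists differed in their medians. None of 20 measured naive pluripotency genes passed (median 0.09), none of 19 general pluripotency genes (median -0.16), and none of 20 formative and primed genes (median -0.65). The wider fit had 3 higher and 2 lower, 2 higher and 5 lower, and none higher and 7 lower in these lists, beside 14.4% higher and 14.3% lower of all genes. Pou5f1, which encodes OCT4, was at 10050, 10739, 12486 and 16422 in SOX2 libraries against 9718, 10739 and 8466 in NTC libraries (0.44 ± 0.22, adjusted p = 0.309). Nanog was at 19699, 21188, 19699 and 16427 in SOX2 libraries against 19699, 19699 and 11820 in NTC libraries (0.36 ± 0.20, adjusted p = 0.365). Esrrb, an orphan receptor of the naive network, was at 8734, 8734, 7307 and 6370 in SOX2 libraries against 9718, 9718 and 6869 in NTC libraries (-0.11 ± 0.18, adjusted p = 0.79). These genes are markers of embryonic stem cells, and their values were high in both groups. Of the other markers chosen for these cells, Sall4, Zfp42, Dppa5a and Tdgf1 overlapped between the groups and did not pass. Lin28a was lower in SOX2 libraries, without overlap and without passing, at 29, 26, 113 and 50 against 174, 199 and 543 in NTC libraries.

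The sets disagreed on some naive genes. Zfp42, known as Rex1, had a log2 difference of -1.03 within the first set and 0.57 within the second (-0.12 ± 0.42 in both together, adjusted p = 0.914). Tfcp2l1, a naive transcription factor, differed by 0.09 within the first set and by 1.78 within the second (1.02 ± 0.44, adjusted p = 0.25). Klf4 was at 3580, 3647, 5266 and 4048 in SOX2 libraries against 2761, 2698 and 1981 in NTC libraries and did not pass (0.86 ± 0.30, adjusted p = 0.172), although the groups did not overlap. Of the formative genes, Lef1 (-3.08 ± 0.55, adjusted p = 0.0538) and Zic2 (-3.04 ± 0.54, adjusted p = 0.054) were closest to the threshold. Zic2, a zinc finger factor of the primed state, was at 58, 69, 20 and 22 in SOX2 libraries against 262, 214 and 316 in NTC libraries.

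Of 11 measured members of the Sox family, Sox17 was the only call in the averaged fit, which called 1.46% of all genes. The wider fit had 1 member higher and 3 lower, beside 14.4% and 14.3% of all genes. Sox21, a SOXB2 factor and a repressor in neural progenitors, had the largest gap of the family, at 87, 99, 232 and 472 in SOX2 libraries against 1415, 1399 and 5155 in NTC libraries. Its log2 difference of -3.91 ± 0.67 just missed the threshold (adjusted p = 0.0527), with nearly equal values within the sets, -3.91 and -3.96. Lin28a, the RNA-binding protein that blocks let-7 processing, was at 29, 26, 113 and 50 in SOX2 libraries against 174, 199 and 543 in NTC libraries (-2.76 ± 0.55, adjusted p = 0.0684).

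The targets of the inhibited and added signals gave few calls. Over all genes 1.08% were called higher and 0.382% lower, and 14.4% and 14.3% in the wider fit. Of 19 measured ERK pathway targets 1 fell and none rose (median -0.57), and 9 fell and none rose in the wider fit. The call was Ier3, an immediate early response gene, at 25, 28, 30 and 26 in SOX2 libraries against 87, 72 and 70 in NTC libraries (-1.41 ± 0.23, adjusted p = 0.0495). Of 18 Wnt and beta-catenin targets none passed (median -0.68), with 1 higher and 7 lower in the wider fit. Axin2, the negative regulator used as a marker of that pathway, was at 77, 44, 465 and 333 in SOX2 libraries against 378, 424 and 966 in NTC libraries (-1.89 ± 0.38, adjusted p = 0.0695). Its level differed between the sets as well, so that SOX2 p21 lay above both first-set NTC libraries. Of 19 LIF and STAT3 pathway genes 1 fell and none rose (median -0.11), with 5 higher and 4 lower in the wider fit. The gene that fell was Il6st, which encodes the shared receptor chain gp130. It was at 1049, 1051, 1475 and 1479 in SOX2 libraries against 1804, 1769 and 2305 in NTC libraries (-0.70 ± 0.10, adjusted p = 0.0399). Of 21 Nodal and TGF beta pathway genes 1 rose and none fell (median -0.28), with 1 higher and 8 lower in the wider fit. The log2 difference was below 0 for 14 of them. Lefty1 was at 4, 4, 4 and 0 in SOX2 libraries against 358, 317 and 12 in NTC libraries. It did not overlap and did not pass (-4.22 ± 1.29, adjusted p = 0.143). The gene that rose was Inhbb, the activin beta-B subunit, at 62, 38, 65 and 18 in SOX2 libraries against 2, 1 and 1 in NTC libraries. Its difference (4.24 ± 0.66, adjusted p = 0.0463) depends on the added constant. Neither the 16 BMP pathway and Id genes nor the 17 Notch pathway genes had a call (medians -0.01 and -0.32). In the wider fit each of these lists had 2 higher and 2 lower.

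Of 29 measured imprinted genes 2 fell and none rose, with a median of -0.70, and the wider fit had 2 higher and 12 lower. Over all genes the averaged fit called 1.08% higher and 0.382% lower, and the wider fit 14.4% and 14.3%. Mirg, a noncoding RNA of the Dlk1-Dio3 domain that hosts many microRNAs (chromosome 12, 109729764 to 109749460, plus strand), was at 110, 82, 144 and 123 in SOX2 libraries against 362, 370 and 474 in NTC libraries. It fell by 1.84 on the log2 scale (SE 0.22, adjusted p = 0.0283), with no overlap. Sfmbt2, a Polycomb-related gene that is expressed from the paternal allele, fell by 1.46 (SE 0.24, adjusted p = 0.0497). Dio3, at the far end of the same domain as Mirg, lay on the other side, at 22, 24, 65 and 54 in SOX2 libraries against 2, 1 and 7 in NTC libraries, and just missed the threshold (3.17 ± 0.53, adjusted p = 0.0508). H19, the maternally expressed noncoding RNA, was at 52, 40, 1525 and 142 in SOX2 libraries against 2099, 2218 and 4667 in NTC libraries. The SOX2 p21 library stood apart from its group there, and the gene did not pass (-4.19 ± 1.11, adjusted p = 0.112).

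Markers of other cell types that the cultures could hold gave few calls, beside 1.08% higher and 0.382% lower over all genes. In the wider fit all genes gave 14.4% and 14.3%. Of 13 measured fibroblast genes 1, Vim, fell (median 0.50), with 4 higher and 2 lower in the wider fit. The summed level of the list ran from 23547 to 41497 in SOX2 libraries and from 19239 to 26637 in NTC libraries. Most of that sum was Fn1, fibronectin, at 22912, 22912, 30387 and 40741 in SOX2 libraries against 25019, 25019 and 14818 in NTC libraries (0.65 ± 0.36, adjusted p = 0.365). Col5a1 was at 98, 99, 96 and 115 in SOX2 libraries against 24, 24 and 35 in NTC libraries and did not pass (1.70 ± 0.31, adjusted p = 0.0556). Col1a1 was at 27, 25, 24 and 18 in SOX2 libraries against 6, 5 and 1 in NTC libraries (2.81 ± 0.54, adjusted p = 0.0625). Col1a2 went the other way, at 9, 5, 15 and 5 in SOX2 libraries against 34, 33 and 40 in NTC libraries (-2.07 ± 0.54, adjusted p = 0.109). Neither overlapped and neither passed. Col3a1 was at 7 or below and Dcn at 49 or below in each of the 7 libraries, both with several values of 0. Of 9 measured endothelial and blood genes none passed, with 1 higher and 2 lower in the wider fit. Their sum ran from 935 to 987 in SOX2 libraries and from 1170 to 1571 in NTC libraries. Cdh5, a cadherin of endothelial cells, was at 2 or below throughout. Other members had clear values. Eng was at 499, 427, 488 and 602 in SOX2 libraries against 549, 539 and 281 in NTC libraries. Tek, a receptor of endothelial and some blood cells, was at 281, 326, 250 and 165 in SOX2 libraries against 512, 507 and 973 in NTC libraries, without overlap and without passing (-1.64 ± 0.38, adjusted p = 0.087).

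Primitive and visceral endoderm genes gave the Sox17 call already described and no other among 15 measured (median 0.03). The log2 difference was above 0 for 8 of them and below 0 for 7. The wider fit had 2 higher and 0 lower, beside 14.4% and 14.3% of all genes. Gata6, an endoderm regulator, was at 40, 57, 94 and 65 in SOX2 libraries against 20, 16 and 76 in NTC libraries (0.65 ± 0.37, adjusted p = 0.373). Dab2, an endocytic adaptor of endoderm, was at 556, 549, 987 and 1379 in SOX2 libraries against 240, 243 and 398 in NTC libraries (1.47 ± 0.34, adjusted p = 0.0884). On the other side of 0 lay Dkk1 (-0.73 ± 0.38, adjusted p = 0.328) and Cited1 (-0.81 ± 0.59, adjusted p = 0.484), among others. No member of the trophectoderm list passed (26 measured, median -0.21), with 2 higher and 8 lower in the wider fit. Neither did any of the neuroectoderm list (11, median 0.31) or the primitive streak and mesoderm list (9, median 0.42). The wider fit had 3 higher and 2 lower in the neuroectoderm list, and 2 higher and 1 lower in the streak and mesoderm list. Cdx2, a trophectoderm regulator, was at 0, 0, 27 and 40 in SOX2 libraries against 15, 12 and 519 in NTC libraries (limma, adjusted p = 0.161). Its log2 difference was -3.85 within the first set, where values were near 0, and -3.94 within the second. The level of Cdx2 differed between the sets in both groups, so the groups overlapped. Whether a small share of other cells contributed to any difference above was not tested, and fewer cells of a type and less RNA per cell cannot be told apart in such bulk samples.

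Of 23 measured p53 targets 1 rose, Plk2, a polo-like kinase, at 613, 613, 996 and 1028 in SOX2 libraries against 264, 285 and 381 in NTC libraries. Its log2 difference was 1.32 ± 0.13 (adjusted p = 0.0238), and no libraries overlapped. The median of the list was 0.20, with 7 higher and 3 lower in the wider fit, and Perp, a desmosome protein and p53 target, fell just short (1.24 ± 0.21, adjusted p = 0.0508). Over all genes 1.08% were called higher and 0.382% lower, and 14.4% and 14.3% in the wider fit. Of 22 interferon response and antigen presentation genes 1 fell and none rose (median -0.01). The wider fit had 5 higher and 4 lower. The gene that fell in the averaged fit was Ifitm1, an interferon-induced membrane protein. It was at 138, 156, 319 and 278 in SOX2 libraries against 735, 726 and 855 in NTC libraries (-1.83 ± 0.24, adjusted p = 0.0331).

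No member was called among 28 integrated stress response and amino acid genes (median 0.28), 27 sterol and fatty acid synthesis genes (0.17), 20 G1 cyclins and CDK inhibitors (-0.29), 21 DNA methylation genes (-0.08), 27 germline genes (-0.13), 27 cadherins and relatives (0.10), 21 genes of the 2-cell-like state (0.09), 19 mitochondrial unfolded protein and mitoribosome genes (-0.05), 14 SOX2 partner factors (0.12) or 10 replication-dependent histones (0.33). The wider fit had 8 stress response genes higher and 2 lower, and 9 sterol and fatty acid genes higher and 0 lower. For G1 genes it had 1 and 6, for DNA methylation genes 5 and 5, and for germline genes 3 and 7. Cadherins and relatives had 7 and 2, 2-cell-like genes 1 and 1, and mitochondrial unfolded protein and mitoribosome genes 2 and 4. SOX2 partner factors had 2 and 0, and histones 3 and 0. Over all genes it had 14.4% higher and 14.3% lower. For 2 members of the stress response list NTC p31 stood far below the other libraries. Pck2, the mitochondrial PEP carboxykinase, was at 2340, 2208, 1411 and 889 in SOX2 libraries against 1065, 996 and 84 in NTC libraries (2.55 ± 0.79, adjusted p = 0.146). Phgdh, the first enzyme of serine synthesis, was at 3862, 4137, 2169 and 1133 in SOX2 libraries against 1880, 1917 and 252 in NTC libraries (1.88 ± 0.57, adjusted p = 0.141). Of 18 immediate early genes Ctgf rose and Ier3 fell (median -0.10), beside 1.08% and 0.382% of all genes. The wider fit had 5 of them higher and 3 lower. Myc was at 3 or below in the SOX2 libraries and from 5 to 31 in the NTC libraries (adjusted p = 0.254).

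**Figure D5:**
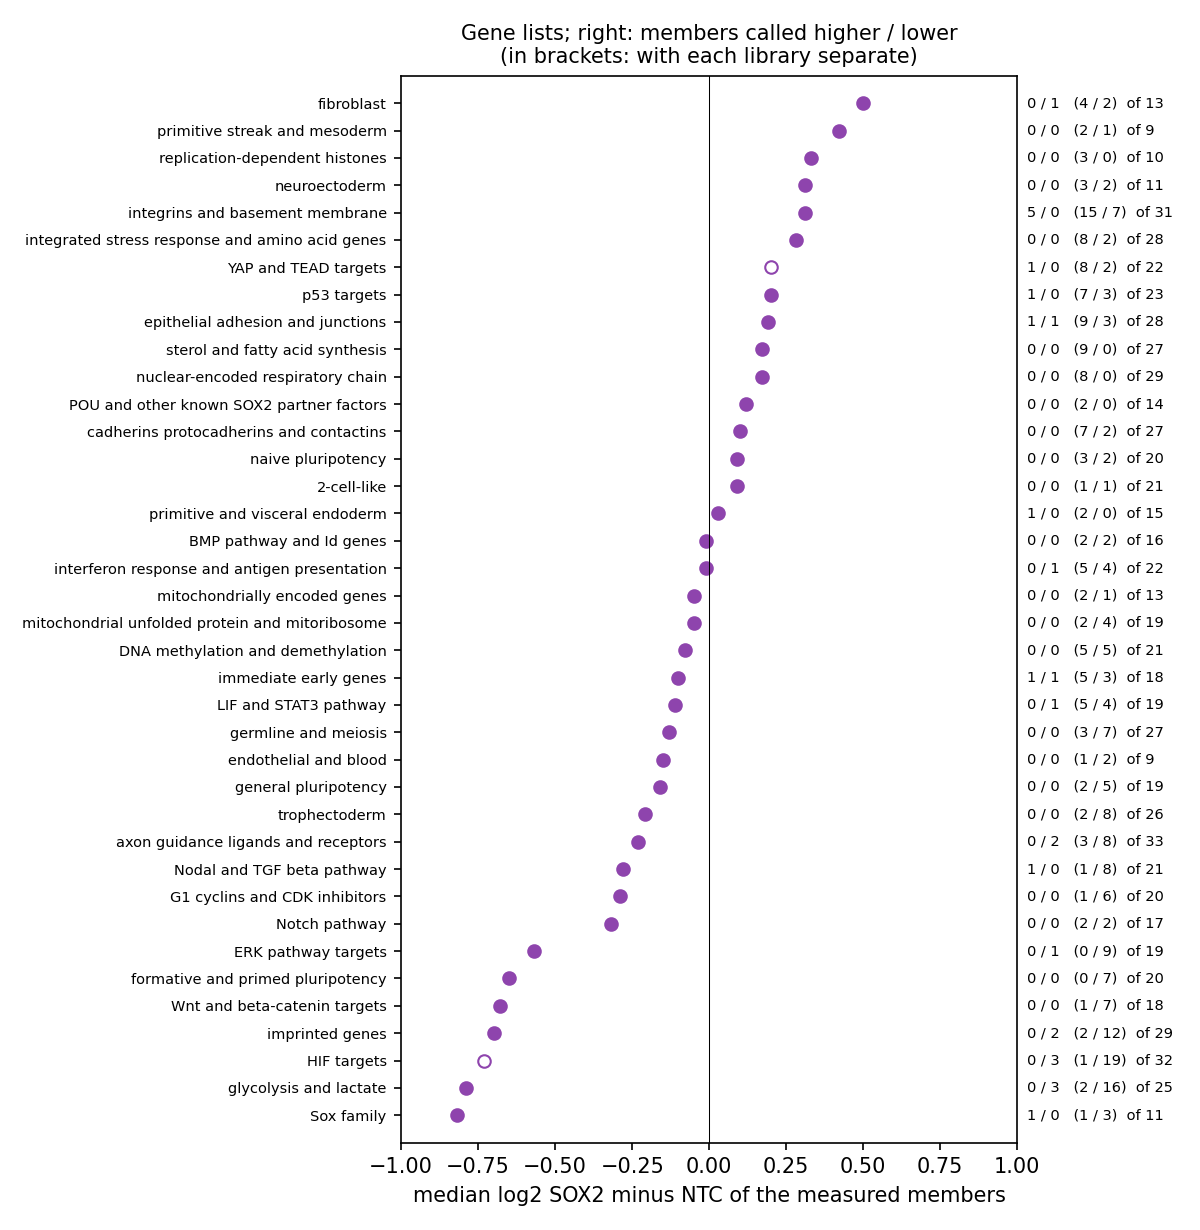
Median log2 difference between SOX2-rescued and NTC cells in 2i of the measured members of each gene list, with the number of members called higher and lower at the right, by the averaged fit and, in brackets, with each library separate. Open circles mark the 2 lists added after the values were seen, and glycolysis and HIF targets lie near the bottom at -0.79 and -0.73.

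The SOX2 and NTC cells were also compared in SL. With every library taken as a replicate, the SOX2 minus NTC difference itself differed between 2i and SL for 3095 of 16443 genes (18.8%; limma, adjusted p under 0.05), with 9.82% more positive in 2i and 9.01% more negative, and 172 of the 237 called genes were among them. These genes were selected for their difference in 2i, which is part of the contrast between media, so nothing is read from that share. Since each group in SL had 2 libraries of the first set, which may be 1 biological replicate, these p-values measure the spread between libraries. Without NTC replicate 1 in SL the count was 1946. In SL alone, SOX2 minus NTC passed for 2464 genes (15%), 7.35% higher and 7.63% lower. Among matrix genes, Itga3 was at 444 and 515 in SOX2 cells in SL against 904 and 777 in NTC cells in SL. Its log2 difference in SL was -0.81 and did not pass (adjusted p = 0.141), and the 2 media differed by 4.74 (adjusted p = 1.24e-05). Nid1 was at 697 and 808 in SOX2 cells in SL against 1395 and 1286 in NTC cells in SL, a fall of 0.83 on the log2 scale in SL (adjusted p = 0.00912) against the rise in 2i (difference between media 2.66, adjusted p = 7.84e-06).

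The glycolysis and HIF genes given next, and Trh, were picked for their fall in 2i. That fall is part of the contrast between media, so nothing is read from how many of them pass it. Egln3 was at 538 and 560 in SOX2 cells in SL against 956 and 927 in NTC cells in SL, a log2 difference of -0.78 there that did not pass (adjusted p = 0.088), and the 2 media differed by -3.12 (adjusted p = 7.94e-05). Pgk1 was at 19697 and 14818 in SOX2 cells in SL against 19697 and 21185 in NTC cells in SL, and Pkm at 40741 and 40741 in SOX2 cells in SL against 30387 and 40741 in NTC cells in SL. The differences between media were -1.95 for Pgk1 (adjusted p = 0.00056) and -1.58 for Pkm (adjusted p = 0.000196). Trh was at 1119 and 939 in SOX2 cells in SL against 694 and 909 in NTC cells in SL, so that SOX2-rescued cells were not below NTC cells there (difference between media -5.86, adjusted p = 4.18e-05).

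Some genes differed in both media. Nrp2 was at 261 and 333 in SOX2 cells in SL against 1035 and 1082 in NTC cells in SL, a fall of 1.84 on the log2 scale (adjusted p = 0.00133) that was smaller than in 2i (difference -2.49, adjusted p = 0.000698). Plk2 was at 811 and 726 in SOX2 cells in SL against 304 and 270 in NTC cells in SL, and its differences in the 2 media were not distinguished (-0.14 ± 0.15, adjusted p = 0.534). Ifitm1 was at 286 and 243 in SOX2 cells in SL against 1509 and 1428 in NTC cells in SL (difference between media 0.51 ± 0.27, adjusted p = 0.207), and Sfmbt2 at 428 and 399 in SOX2 cells against 1602 and 1627 in NTC cells (0.49 ± 0.25, adjusted p = 0.195). Slit3 was at 18 and 23 in SOX2 cells in SL against 141 and 176 in NTC cells in SL (0.50 ± 0.44, adjusted p = 0.454).

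The SOX17FNV cells give a second rescue on the same background. SOX17FNV minus SOX2 in 2i passed for 489 of 16241 genes (3.01%), 1.5% higher and 1.51% lower with SOX17FNV, and 32 of the 237 genes called between SOX2-rescued and NTC cells were among them. Both comparisons use the same SOX2 libraries and the same fit, so nothing is read from that overlap. Itga3 was at 1136, 1178, 855 and 613 in SOX17FNV libraries against 1049, 1162, 547 and 622 in SOX2 libraries (0.23 ± 0.38, adjusted p = 0.81), and Egln3 at 19, 17, 34 and 20 in SOX17FNV libraries against 31, 34, 35 and 22 in SOX2 libraries (-0.33 ± 0.34, adjusted p = 0.67). For neither gene could the 2 rescued lines be told apart. Nrp2 was lower still with SOX17FNV, at 3, 2, 7 and 7 in SOX17FNV libraries against 51, 62, 69 and 55 in SOX2 libraries (-3.33, adjusted p = 0.00864). Vim followed, at 16, 23, 22 and 23 in SOX17FNV libraries against 309, 363, 785 and 453 in SOX2 libraries (-4.46, adjusted p = 0.00757), as did Ifitm1, at 22, 16, 25 and 21 in SOX17FNV libraries against 138, 156, 319 and 278 in SOX2 libraries (-3.40, adjusted p = 0.00421). H19 was higher, at 5573, 5797, 19697 and 7059 in SOX17FNV libraries against 52, 40, 1525 and 142 in SOX2 libraries (5.42, adjusted p = 0.0487).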

How the data were processed

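RNA from the cells was extracted with Trizol, selected with oligo(dT), copied with random hexamers and sequenced on Illumina machines, per the labels' protocols. The submitters' processing notes name RSEM, Bowtie2 2.0 and mm10, and no source used here states strand use. The deposited values are best called a score: whole numbers that the authors normalized between libraries to 1 common distribution, as the values show, so count models could not be used and depth, counting intervals and floors are unknown. Count data had been assumed in the planning, and limma took the place of a count test.

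Values were analysed as log2(value + 1), which understates changes of low genes, with limma 3.58.1 in R 4.3.3 (trend and robust moderation, group and set terms, 4 residual degrees of freedom). The fit had 3 SOX2, 2 NTC and 3 SOX17FNV values in 2i, replicates 1 and 2 of the first set being averaged. Genes that did not reach 1 in 2 or more libraries were left out. P-values were adjusted by the Benjamini-Hochberg method over all 16241 genes tested, and the script was tested on simulated data. The difference between media used all 21 libraries, each separate. Columns of the second set name a group but not a single labelled sample.

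Sox2, Sox17, list members, and the 12 largest increases and 12 largest decreases among called genes were named. For these the higher group had a mean of at least 50, no libraries overlapped, and predicted genes were left out; 1 gene that the rule selects is not reported here. Members and lists were chosen with earlier results of these data known, and the HIF and YAP lists after their values were seen. Coordinates are from GENCODE M21 on GRCm38. Promoter sequences were not used here. Figures were drawn with matplotlib 3.10.9. Alternatives included separate libraries, other set terms, each set alone, a replicate block, other pseudocounts, filters and scalings, and leaving out each library.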

Additional observations from a re-analysis of the deposited data

Results flagged for a closer look

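In 13 genes 1 of the 4 SOX2 libraries stood apart from the other 3 in 2i, by a gap test (95 genes tested). Chance passes it in about 1 in 20 groups of independent values, but replicates 1 and 2 were nearly alike, so that rate need not hold here. Where the other 3 values are equal, as for Nid1 and Myc, any gap passes. SOX2 p21 was the high library for Trh (20, others 10 to 11), Pkm (19697, others 11819 to 12486), Slc16a3 (229, others 21 to 52), H19 (1525, others 40 to 142), Sfrp1 (2989, others 2601 to 2635) and Myc (3, others 1). It was the low library for Nid1 (8024, others 9102) and Tgfbi (57, others 86 to 91). SOX2 p31 was the high library for Fabp4 (86, others 34 to 41), Col5a1 (115, others 96 to 99) and Fbln5 (909, others 488 to 549). It was the low library for Vegfa (1385, others 2351 to 2429) and Perp (120, others 158 to 163).

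The log2 difference of SOX2 from NTC cells differed between 2i and SL for the genes that follow, by the limma test over separate libraries, which measures the spread between libraries. Values are the difference in 2i minus that in SL. Many of these genes were picked for their difference in 2i, which is part of this contrast, so nothing is read from how many pass. Of the matrix, adhesion and junction genes that passed this test, those above 0 were Itga3 at 4.74, Itga5 at 1.61, Itgb4 at 2.21, Nid1 at 2.66, Sparc at 1.43, Lama5 at 1.21, Hspg2 at 1.23, Sdc3 at 4.08, Emp1 at 2.06, Col5a1 at 1.27, Cdh1 at 0.65, Dsp at 1.96 and Perp at 1.20, and Vim was below 0 at -1.82. Col4a1 at -1.71 and Col4a2 at -1.29 did not pass (adjusted p = 0.123 and 0.284). Also above 0 were Htra1 at 4.57, Sfrp1 at 1.22, Ltbp4 at 1.96, Tgfbi at 1.51, Fbln5 at 3.30, Plod1 at 2.85 and Pcolce at 1.23. Of the YAP and TEAD genes, Ctgf was at 3.86, Cyr61 at 3.59 and Wwtr1 at 1.13.

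Glycolysis and HIF genes mostly lay below 0, with Egln3 at -3.12, Pgk1 at -1.95, Pdk1 at -1.60, Pkm at -1.58, Bnip3 at -2.97, Slc16a3 at -4.42, Slc2a1 at -1.70, Ldha at -1.73 and Eno1 at -0.75. The exceptions named here were Hk1 at 1.94, Pfkm at 0.83 and Epas1 at 2.03. Pfkl at -1.49 did not pass (limma, adjusted p = 0.0563). Among other large increases, Megf11 was at 4.21, Acsl6 at 2.67, Myo18b at 2.50, Olfr1312 at 9.30 and Sox17 at 2.09. Those of Sox17, Myo18b and Olfr1312 depend on values near 0. Dab2 at 1.28 and Pck2 at 3.33 also lay above 0, though neither gene was called in 2i by the averaged fit.

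Among the decreases, Trh was at -5.86, Nrp2 at -2.49, Hip1r at -2.14, Paqr7 at -1.89, Serpine2 at -2.73, Mapk4 at -2.85, Mt1 at -0.91 and Nfkbia at -2.68. Robo1, which was not called in 2i by the averaged fit, was at -1.67. Pluripotency and signalling genes were Nanog at 0.85, Tfcp2l1 at 1.53, Il6st at -0.94, Lin28a at -3.09, Lef1 at -3.35, Zic2 at -2.72, Axin2 at -3.91 and Myc at -3.64. Imprinted genes were Dio3 at 6.25, Mirg at -1.04 and Impact at -0.94, and the mitochondrial gene mt-Co3 was at 0.91.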

How the results depend on the processing

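No result among those recomputed reversed its direction past the threshold. The count of 237 calls (175 higher and 62 lower in SOX2-rescued cells) changed with how replicates were counted and with which libraries, groups and terms entered the fit. It was 4718 (2374 and 2344) with each of 21 libraries separate, 3809 (1951 and 1858) with the 7 SOX2 and NTC libraries separate, 7375 (3743 and 3632) in the first set alone, and 56 (42 and 14) in the second set alone. It was 2 (0 and 2) with SOX2 and NTC values only, 71 (55 and 16) with no set term, 56 (41 and 15) with 3 batches, 384 (268 and 116) with a mean of at least 50, and 118 (79 and 39) without trend and robust moderation. At an unadjusted p under 0.05 limma had 3459 genes in the averaged fit and 3561 with SOX2 and NTC values only. Other pseudocounts, no filter, quantile normalization and centring gave 208 to 261 calls.

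Leaving out each library in turn gave 0 to 312 calls, 0 to 215 higher and 0 to 97 lower. At the lowest, without SOX2 p21, 2567 genes had an unadjusted p under 0.05. The same runs gave 0 to 5 integrin and basement membrane genes higher and 0 to 3 glycolysis genes lower, 15 and 16 of them with all libraries separate, and 2 and 1 with no set term. For the difference between media they gave 1946 to 3486 genes, and the first set alone gave 4963.

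For Sox17 the log2 difference of 1.83 was no longer past the threshold with SOX2 and NTC values only (1.85), their 7 libraries separate (1.95), no set term (1.71), 3 batches (1.92), the second set alone (1.58), a pseudocount of 10 (0.41), no filter (1.83), a mean of at least 50 (1.83), quantile normalization (1.91) or no trend (1.83). Leaving out each library gave 1.60 to 2.06, and it did not pass without SOX2 p21, SOX2 p31 or any 1 of the NTC libraries (adjusted p 0.0505 to 0.154). A pseudocount of 0.1 gave 4.2, past the threshold. For Sox2, values of -1.52 to 0.04 did not pass under any alternative run.

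A replicate block over the first set, libraries separate, gave 6962 calls (3539 higher and 3423 lower). Same-numbered libraries did not deviate together (correlations -0.015, -0.04 and -0.018 over 12025 genes), so the numbers do not pair the samples. The causes of these changes were not tested, and with depth unknown no limit can be set on genes listed at 0.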

Other observations

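The genes given here belong to no list and were picked for their differences after their values were seen, so they say nothing of a group. Htra1, a secreted serine protease that cleaves matrix proteins, was at 955, 966, 752 and 653 in SOX2 libraries against 114, 141 and 92 in NTC libraries (log2 difference 2.92 ± 0.16, limma adjusted p = 0.0093). Sfrp1, a secreted antagonist of Wnt ligands, was at 2601, 2635, 2989 and 2635 in SOX2 libraries against 563, 559 and 296 in NTC libraries (2.78 ± 0.24, adjusted p = 0.0215). Neither gene came near overlap. Fbln5, an elastic fibre protein, was at 549, 532, 488 and 909 in SOX2 libraries against 116, 123 and 117 in NTC libraries (2.40 ± 0.32, adjusted p = 0.0331). Ltbp4, which binds latent TGF beta, was at 1894, 2065, 1389 and 1439 in SOX2 libraries against 609, 649 and 189 in NTC libraries (2.36 ± 0.27, adjusted p = 0.0279). Tgfbi, a TGF beta-induced matrix protein, was at 91, 86, 57 and 89 in SOX2 libraries against 20, 16 and 15 in NTC libraries (2.17 ± 0.29, adjusted p = 0.0331). All SOX2 libraries lay above all NTC libraries for these genes.

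Plod1, which hydroxylates collagen lysines, was at 591, 579, 491 and 365 in SOX2 libraries against 110, 115 and 145 in NTC libraries (1.90 ± 0.27, adjusted p = 0.0399). Pcolce, an enhancer of procollagen cleavage whose exons overlap Fbxo24, was at 1212, 1182, 1094 and 904 in SOX2 libraries against 430, 377 and 372 in NTC libraries (1.46 ± 0.15, adjusted p = 0.0246). Wwtr1, which encodes the coactivator TAZ, differed less, at 1516, 1531, 1475 and 1516 in SOX2 libraries against 898, 892 and 692 in NTC libraries (0.94 ± 0.14, adjusted p = 0.0421). In the other direction, Mt1, a metallothionein, was at 4178, 4032, 1222 and 1219 in SOX2 libraries against 12486, 12486 and 4732 in NTC libraries. Its level differed between the sets in both groups, and the log2 difference was -1.77 ± 0.19 (adjusted p = 0.0246). Nfkbia, the inhibitor of NF-kappa-B, was at 85, 87, 59 and 68 in SOX2 libraries against 307, 317 and 174 in NTC libraries (-1.63 ± 0.19, adjusted p = 0.0283).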
